A study of Mus musculus with 10 samples.

Results

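The genes described here are 31 mouse genes of cholesterol synthesis, cholesterol transport and storage, and control by sterol regulatory element-binding proteins (SREBPs). They were taken from a list of symbols and kept if they held at least 10 reads over the 10 libraries. All 31 were found under 1 Ensembl gene ID each and all 31 were kept, out of 31053 genes in the count files, of which 14581 held at least 10 reads. The list does not hold every gene of the pathway. It comprises 19 enzymes (6 from acetyl-CoA to isopentenyl diphosphate, 5 from there to lanosterol, and 8 from lanosterol towards cholesterol), 5 genes of the SREBP switch and 7 genes of sterol transport, storage and efflux.

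Cholesterol is built from acetyl-CoA through mevalonate, farnesyl diphosphate, squalene and lanosterol. The pathway is controlled mainly at transcription: when membrane sterol in the endoplasmic reticulum is low, SCAP escorts SREBP to the Golgi, where proteases release its active part, and INSIG proteins hold the complex back when sterol is high. Excess sterol is esterified by SOAT1 for storage, and its oxidised forms activate the liver X receptors, which drive efflux pumps such as ABCA1 and the ubiquitin ligase MYLIP, which marks lipoprotein receptors for degradation.

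All 10 libraries were made from the E14 line of mouse embryonic stem (ES) cells, stably transfected with a construct from which doxycycline (DOX) induces Esrrb, an orphan nuclear receptor that helps hold the naive state. The first group was grown for 96 h after removal of 2iL in N2B27 medium with DOX (3 libraries), the second for the same 96 h without DOX (3 libraries), and the third was kept in N2B27 with 2iL and no DOX (4 libraries). 2iL combines LIF, a cytokine, with PD0325901 (1 µM), which blocks MEK, and CHIR99021 (3 µM), which blocks GSK3. Cells without the construct, and 2iL cells given DOX, were not among the groups, so an effect of DOX on its own cannot be told apart from that of the construct. Sample names give experiment and library number, written here as exp1_1, but nothing says that libraries came from separate cultures, so p-values measure only the spread between these libraries. Reads came from the 3′ ends of polyA RNA, with a median of 3334324.5 reads in genes per library and a range of 1253620 to 4715450. Levels are CPM (reads in a gene scaled to library size) with TMM scaling, and differences are log2 fold changes with a standard error (SE) from edgeR's quasi-likelihood test. A gene was called when its Benjamini-Hochberg p-value, adjusted over all 11215 genes tested, was below 0.05.

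Sums of marker genes are CPM without TMM scaling. The ES cell label was met by its markers: the summed level of 8 ES cell genes was 2736 to 2795 CPM with DOX, 2079 to 2434 CPM without DOX and 1423 to 2041 CPM in 2iL, and none of the 8 was at 0 in any group. Single markers moved in both directions. By TMM-scaled means, Tdgf1 read 24.4 CPM without DOX and 155 CPM in 2iL, and Sox2 168 and 337 CPM. Lin28a read 444 CPM without DOX and 90.8 CPM in 2iL, Utf1 402 and 123 CPM, and Dppa4 354 and 163 CPM. The other markers of the list were not called in this comparison. Sums of 6 naive state markers were 371 to 473 CPM with DOX, 94.4 to 141 CPM without DOX and 1815 to 2090 CPM in 2iL. Esrrb itself read 12.8 to 26.9 CPM with DOX, 13.5 to 31.9 CPM without DOX and 228 to 377 CPM in 2iL. The sources used here do not give the 3′ end of the construct, so these Esrrb reads do not check its induction. The DOX library exp1_2 stood apart: it had the fewest reads, 14.8% of them in Gm42418, which lies over a ribosomal RNA repeat (3.39 to 6.61% elsewhere), 3.10% in mitochondrial genes (0.559 to 1.27% elsewhere) and 2102 CPM, unscaled, over 8 fibroblast markers (1.82 to 23.9 CPM elsewhere). The same library summed to 63.8 CPM, unscaled, over 5 macrophage markers (8.33 to 30.75 CPM elsewhere). Of these, Ptprc, Csf1r and Lyz2 were highest there, whereas Cd68 was lowest there and Adgre1 was at 0. Calls that include DOX cells are therefore also given without this library. In bulk RNA, fewer cells of a type and less RNA per cell cannot be told apart.

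After 96 h without 2iL and without DOX, most early enzymes of cholesterol synthesis were higher than in 2iL. The lysosomal carrier Npc2 and the late enzyme Ebp were lower. Insig1, the efflux gene Abca1 and the lipoprotein receptor control gene Mylip were also lower, but each lost its call without some libraries. Abca1 held only 2 reads without DOX and 42 in 2iL, and Mylip 3 and 41. The efflux gene Abcg1 was not called. Of the 31 genes, 12 rose and 5 fell in 96 h cells without DOX against 2iL cells; 20.4% of all genes tested were called in this comparison, 11.5% higher and 8.9% lower. Among the 19 enzymes, 10 rose and 1 fell, with a median log2 fold change of 0.72, against 0.00 over all genes tested. The enzymes up to lanosterol accounted for 8 of the 10. With DOX, no member was called against 96 h cells without DOX, where only 3.1% of all genes tested were called. Of the 31 fold changes, 20 were negative, with a median of -0.26 against -0.02 over all genes tested. The share of negative fold changes over all genes is not given. The heatmap of all members shows these patterns library by library.

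**Figure D1:**
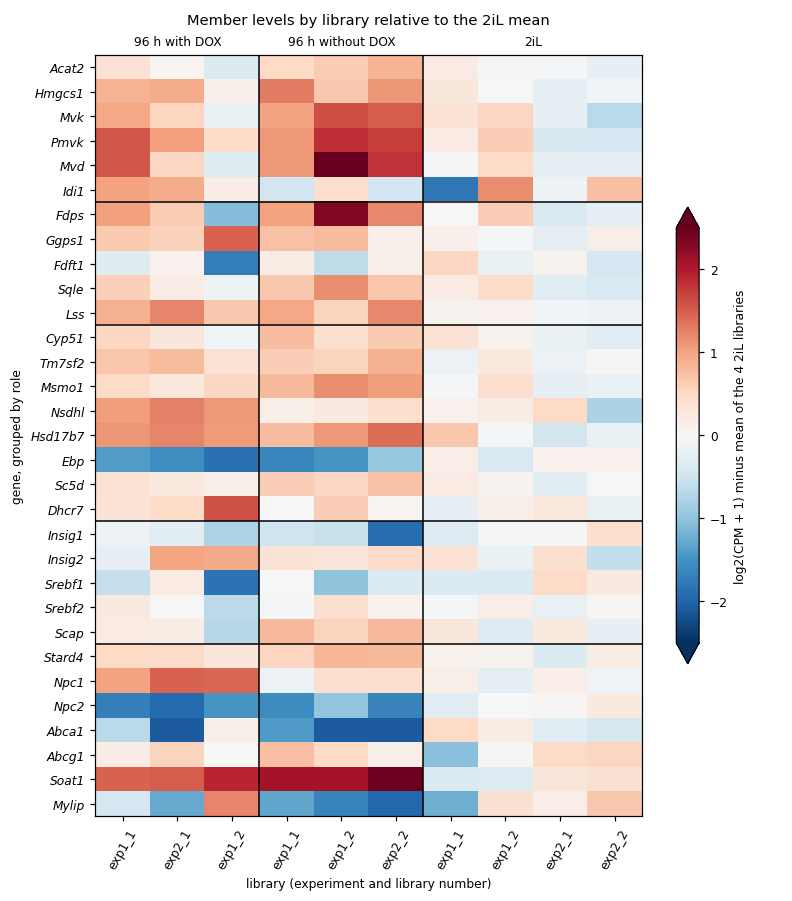
Each row is 1 of the 31 genes, grouped by role, and each column is 1 library, grouped as 96 h with DOX, 96 h without DOX and 2iL. Colour gives log2(CPM + 1), TMM-scaled, minus its mean over the 4 2iL libraries. Mvd, Fdps and Soat1 are among the rows most raised in the 3 libraries without DOX, and Abca1, Mylip, Npc2 and Ebp among those most lowered.

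All 17 calls without DOX against 2iL had separate CPM ranges in the groups compared and the same direction in experiments 1 and 2, of which experiment 2 held 1 library in each 96 h group. The calls were made from these same libraries, so neither trait is an independent check of them. Over all 31 genes, ranges were apart for 16 that were higher and 5 that were lower, where 16.1% of all genes tested were higher and 14.8% lower without overlap. Hmgcs1, Mvk, Pmvk, Mvd, Msmo1, Soat1, Ebp and Npc2 kept their call without each of the 10 libraries in turn, and the other 9 lost it without at least 1. The count of 17 was 10 without the no-DOX library exp2_2, 11 without the no-DOX library exp1_2, 11 without the 2iL library exp2_1 and 19 without the DOX library exp1_2, where 23.4% of all genes tested were called. For the counts of 10 and 11, the share of all genes called is not given. A loss particular to the members therefore cannot be told from a general loss of calls with fewer libraries. Experiment 1 alone, with 2 libraries in each group, gave 3 calls, where 10.7% of all genes tested were called: Mvd and Soat1 rose and Ebp fell.

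Sequence just upstream of the start sites was compared because so many enzymes moved together. RefSeq windows on GRCm38.p6 (250 bases before each start site) matched 25 of the 31 genes; Fdps, Fdft1, Sqle, Stard4, Npc1 and Abcg1 are named only. Windows were searched on both strands for CCAAT, the letters of the CCAAT box bound by NF-Y; TCACNCCAC, a sterol regulatory element; CACGTG, an E-box; and GGGCGG, a GC box. Each motif was counted on its own, also where matches overlapped. CCAAT was in 22 of 25 genes (88%), against 41.4% of the 8829 tested genes with a window. GGGCGG was also in 22 of 25 (88%, against 66.8%), CACGTG in 6 of 25 (24%, against 10.3%) and TCACNCCAC in 1 of 25 (4%, against 1.29%). DR4 was in 0 of 25 and in 0 of the 8829. The 150 bases before the start site are given for Hmgcs1, Mvk and Mvd, early enzymes that rose without DOX, for Soat1, which rose, and for Ebp, the enzyme that fell. Capitals mark CCAAT or its reverse complement and, in Hmgcs1, the sterol regulatory element at position -137 from the start site. They are read 5′ to 3′ on the gene's strand from chr13:119690201-119690350 (plus strand) for Hmgcs1, chr5:114444119-114444268 (plus) for Mvk, chr8:122443423-122443572 (minus) for Mvd, chr1:156474329-156474478 (minus) for Soat1 and chrX:8193513-8193662 (minus) for Ebp.
Hmgcs1: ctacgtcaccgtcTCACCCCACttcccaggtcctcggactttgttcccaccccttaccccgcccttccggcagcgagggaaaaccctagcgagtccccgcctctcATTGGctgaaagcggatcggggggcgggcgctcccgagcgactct
Mvk: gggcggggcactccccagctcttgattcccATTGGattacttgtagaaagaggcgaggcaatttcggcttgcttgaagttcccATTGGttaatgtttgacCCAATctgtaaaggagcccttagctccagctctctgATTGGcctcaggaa
Mvd: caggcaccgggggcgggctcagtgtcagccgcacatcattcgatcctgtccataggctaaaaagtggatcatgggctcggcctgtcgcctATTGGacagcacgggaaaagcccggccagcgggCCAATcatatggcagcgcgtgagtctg
Soat1: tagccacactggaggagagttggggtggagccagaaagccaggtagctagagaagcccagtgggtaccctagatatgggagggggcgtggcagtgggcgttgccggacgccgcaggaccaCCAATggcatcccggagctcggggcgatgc
Ebp: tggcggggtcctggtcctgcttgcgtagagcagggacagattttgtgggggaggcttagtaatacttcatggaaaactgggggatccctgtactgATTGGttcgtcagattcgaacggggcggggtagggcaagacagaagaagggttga
The 4 CCAAT matches in Mvk are the most in these stretches. Mvd holds 2, and Hmgcs1, Soat1 and Ebp hold 1 each. The 150 bases before the start site of Npc2, which fell and is not printed, hold 2. CCAAT was thus present upstream of genes that rose and of the enzyme that fell.

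The 6 enzymes from acetyl-CoA to isopentenyl diphosphate held the highest share of calls: 5 rose without DOX against 2iL, with a median log2 fold change of 1.18 over all 6. Mvd, mevalonate diphosphate decarboxylase (ENSMUSG00000006517, chr8:122433601-122443422, minus strand, GRCm38), read 598, 288 and 164 CPM with DOX (exp1_1, exp2_1 and exp1_2, the order used throughout), 429.6, 1314 and 707 CPM without DOX (exp1_1, exp1_2 and exp2_2), and 199, 287, 172 and 171 CPM in 2iL (exp1_1, exp1_2, exp2_1 and exp2_2). Every library without DOX was above every 2iL library, the no-DOX library exp1_2 was the highest of all, and the DOX range overlapped both other groups. Without DOX against 2iL, Mvd rose by 1.98 ± 0.37 (SE; adjusted p = 0.000627), with 1.84 in experiment 1 and 2.04 in experiment 2. Pmvk, phosphomevalonate kinase, read 260.4, 181 and 121 CPM with DOX, 189, 318 and 293 CPM without DOX, and 102, 135, 66.4 and 65.2 CPM in 2iL. Its lowest library without DOX lay above its highest 2iL library, whereas the DOX library exp1_2 lay within the 2iL range. Pmvk rose by 1.53 ± 0.29 without DOX (SE; adjusted p = 0.000563), with 1.09 in experiment 1 and 2.15 in experiment 2. Mvk, the mevalonate kinase 1 step earlier, read 139, 103 and 61.6 CPM with DOX, 142, 216 and 202 CPM without DOX, and 89.9, 101, 61.2 and 43.8 CPM in 2iL. Its rise of 1.33 ± 0.29 (SE; adjusted p = 0.00211) was 0.90 in experiment 1 and 1.94 in experiment 2. In 2iL, both kinases were lower in the experiment 2 libraries than in the experiment 1 libraries.

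Hmgcs1, the cytosolic HMG-CoA synthase, whose window holds the sterol regulatory element shown above, read 889, 932 and 529 CPM with DOX, 1205, 779.8 and 1042 CPM without DOX, and 596, 488, 418 and 462 CPM in 2iL. Both 96 h groups lay above 2iL apart from the DOX library exp1_2, which fell inside the 2iL range. Hmgcs1 rose by 1.04 ± 0.24 without DOX against 2iL (SE; adjusted p = 0.00399), with 0.87 in experiment 1 and 1.24 in experiment 2. Acat2, the cytosolic acetyl-CoA acetyltransferase at the head of the pathway, averaged 244 ± 57.2 CPM with DOX, 374 ± 45.3 CPM without DOX (SD, n = 3 each) and 236 ± 28.7 CPM in 2iL (SD, n = 4). Its rise of 0.66 ± 0.22 without DOX (SE; adjusted p = 0.0333) was lost without any 1 of the 3 no-DOX libraries or without 2iL exp1_2, exp2_1 or exp2_2, with an adjusted p of up to 0.132, and 153 bases at its 3′ end match a transcript of Tcp1 at 97.4% identity. Idi1, isopentenyl diphosphate isomerase, held only 117 reads in all and ranged from 0 to 6.70 CPM. It did not pass (log2 fold change -0.61, 95% interval -2.41 to 1.20), and 284 bases at its 3′ end match the pseudogene Gm13502 at 100% identity, so reads placed uniquely may miss it.

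**Figure D2:**
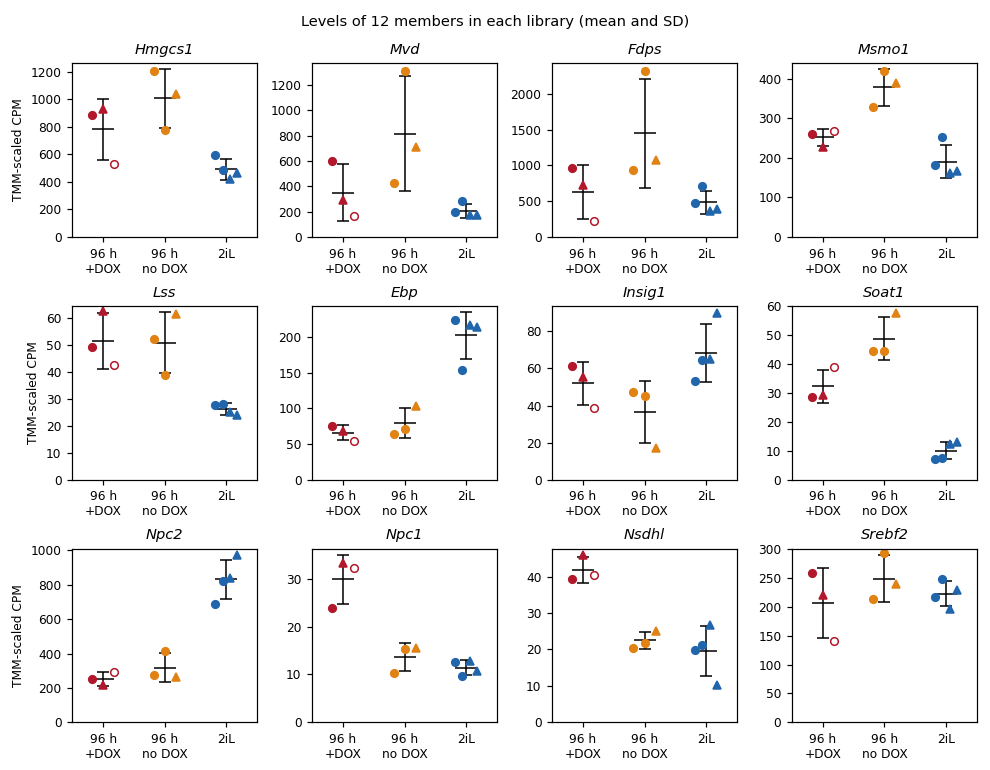
TMM-scaled CPM of 12 of the genes in each library (vertical axes, 1 panel per gene) for 96 h with DOX, 96 h without DOX and 2iL from left to right. Circles are experiment 1, triangles experiment 2, the open circle is the DOX library exp1_2, and bars give mean and SD. Mvd and Fdps spread most among the no-DOX libraries, while Soat1, Ebp and Npc2 separate both 96 h groups from 2iL.

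Between isopentenyl diphosphate and lanosterol, Fdps, Sqle and Lss rose without DOX against 2iL, and Ggps1 and Fdft1 did not pass. Fdps, farnesyl diphosphate synthase, which feeds sterols, dolichol and protein prenylation, read 958, 724 and 219 CPM with DOX, 942, 2329 and 1082 CPM without DOX, and 468, 717, 359 and 395 CPM in 2iL. As with Mvd, the no-DOX library exp1_2 was by far the highest and the DOX library exp1_2 the lowest of all 10. Fdps rose by 1.58 ± 0.39 (SE; adjusted p = 0.00656), and the adjusted p was 0.0654 without the no-DOX library exp1_2. The 3′ end of Fdps is nearly repeated in 5 processed pseudogenes, so its level from uniquely placed reads is uncertain. Gm43738, annotated as protein-coding on the same strand, shares 1124 exonic bases with Fdps and matches 300 bases at its 3′ end at 100% identity. It held 0 reads, and the effect of this overlap on the Fdps counts was not tested. Sqle, squalene epoxidase, the first oxygen-requiring step of sterol synthesis, read 230.3, 174 and 139 CPM with DOX, 243, 344 and 248 CPM without DOX, and 175, 209, 126 and 117 CPM in 2iL. Its no-DOX range lay above both others, and it rose by 0.83 ± 0.25 against 2iL (SE; adjusted p = 0.0192). That call was lost without the no-DOX library exp1_2 or without 2iL exp2_1 or exp2_2, with an adjusted p of up to 0.109.

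Lss, lanosterol synthase, which closes the sterol rings, read 49.5, 62.7 and 42.6 CPM with DOX, 52.3, 38.9 and 61.7 CPM without DOX, and 27.9, 28.3, 25.1 and 23.9 CPM in 2iL. Both 96 h groups lay wholly above 2iL and overlapped each other. Lss rose by 0.98 ± 0.26 with DOX against 2iL (SE; adjusted p = 0.0115) and by 0.95 ± 0.26 without DOX against 2iL (SE; adjusted p = 0.0102). The first call was lost without the DOX library exp2_1 (adjusted p = 0.0670) and the second without the no-DOX library exp2_2 (adjusted p = 0.0612). Ggps1, geranylgeranyl diphosphate synthase, averaged 22.8 ± 8.87 CPM with DOX, 17.2 ± 4.26 CPM without DOX (SD, n = 3 each) and 11.3 ± 1.41 CPM in 2iL (SD, n = 4), and its 3′ end is nearly repeated in the pseudogene Gm5630. Fdft1, squalene synthase, averaged 46.1 ± 25.6 CPM with DOX, 60.7 ± 17.7 CPM without DOX (SD, n = 3 each) and 65.5 ± 19.3 CPM in 2iL (SD, n = 4). The last 300 bases of Fdft1 lie inside Ctsb on the opposite strand, and Ctsb fell by 2.09 on the log2 scale without DOX against 2iL (adjusted p = 0.00024). The sources used here do not say whether counting used strand, so reads of the 2 genes may not be told apart.

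Of the 8 enzymes after lanosterol, Msmo1 and Hsd17b7 rose and Ebp fell without DOX against 2iL. Msmo1, the methylsterol monooxygenase that starts removal of the C4 methyl groups, read 261, 226 and 268 CPM with DOX, 328, 420.3 and 389 CPM without DOX, and 182, 252, 162 and 166 CPM in 2iL. All libraries without DOX lay above all others, and Msmo1 rose by 0.99 ± 0.22 against 2iL (SE; adjusted p = 0.00198). Hsd17b7, a keto-reductase of the same demethylation complex, read 27.2, 29.7 and 26.4 CPM with DOX, 21.6, 26.8 and 33.6 CPM without DOX, and 19.9, 11.9, 8.56 and 10.7 CPM in 2iL. Both 96 h groups exceeded 2iL in every library. Its log2 fold change against 2iL was 1.12 ± 0.33 with DOX (SE; adjusted p = 0.0242) and 1.10 ± 0.33 without DOX (SE; adjusted p = 0.0203). Both calls were lost without any 1 of 2iL exp1_2, exp2_1 and exp2_2, the first also without DOX exp2_1 and the second without no-DOX exp2_2, with adjusted p up to 0.0722 and 0.0950.

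Ebp, the sterol isomerase that shifts the ring double bond (ENSMUSG00000031168, chrX:8185329-8193512, minus strand), went the other way. It read 75.5, 67.6 and 54.3 CPM with DOX, 64.04, 70.9 and 104 CPM without DOX, and 224, 154, 217 and 214 CPM in 2iL. Every 96 h library was below every 2iL library. Ebp fell by 1.61 ± 0.24 on the log2 scale with DOX against 2iL (SE; adjusted p = 8.69e-05) and by 1.34 ± 0.24 without DOX against 2iL (SE; adjusted p = 0.000306), and both calls held within experiment 1. Without DOX the change was -1.48 in experiment 1 and -1.05 in experiment 2. Nsdhl, the sterol dehydrogenase and decarboxylase of C4 demethylation, read 39.3, 45.9 and 40.4 CPM with DOX, 20.5, 21.9 and 25.2 CPM without DOX, and 19.9, 21.3, 26.6 and 10.3 CPM in 2iL. It was higher in each DOX library, exp1_2 included, than in any other library. Nsdhl rose by 1.09 ± 0.31 with DOX against 2iL (SE; adjusted p = 0.0180), a call lost without DOX exp2_1 or 2iL exp2_2 (adjusted p up to 0.0603), and did not pass against cells without DOX (0.89 ± 0.33, SE; adjusted p = 0.176).

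The remaining late enzymes did not pass in any of the 3 comparisons. Cyp51, the lanosterol demethylase, had a log2 fold change of 0.60 (adjusted p = 0.0633) without DOX against 2iL, and Sc5d, the sterol C5 desaturase, 0.63 (adjusted p = 0.0523). Without the DOX library exp1_2 both passed, with adjusted p of 0.0221 and 0.0341. Cyp51 shares 166 bases at its 3′ end with Akap9 on the opposite strand, which rose by 1.52 (adjusted p = 9.37e-05). Tm7sf2, the sterol C14 reductase, which shares 532 exonic bases with Vps51 on the same strand, averaged 20.5, 21.5 and 13.0 CPM with DOX, without DOX and in 2iL, and Dhcr7, the 7-dehydrocholesterol reductase, 33.6, 20.7 and 17.4 CPM. The Dhcr7 mean with DOX rests on the library exp1_2, which read 54.3 CPM beside 22.0 and 24.5 CPM in the other 2.

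Summed over the 19 enzymes, the libraries with DOX read 4275, 3501 and 2208 CPM, those without DOX 4493, 6671 and 5110.5 CPM, and those in 2iL 2801, 3003, 2188 and 2174 CPM. In these sums, all libraries without DOX lay above all others, and the DOX library exp1_2 lay at the level of the lower 2iL libraries. Abundant genes weigh most in a sum. With each of the 19 enzymes weighted alike, mean log2 differences from the 2iL mean were 0.648, 0.511 and 0.104 with DOX. Without DOX they were 0.534, 0.797 and 0.745, so the DOX library exp1_1 lay above the no-DOX library exp1_1 and the groups overlapped. Fdps and Mvd carried much of the spread: without them, sums were 1825 to 2719 CPM with DOX, 3028 to 3322 CPM without DOX and 1609 to 2135 CPM in 2iL. The 15 genes of a fatty acid synthesis and desaturation list, among them Fasn, fatty acid synthase, and Scd1, stearoyl-CoA desaturase, are the targets attributed mainly to SREBP1. Their sums were 1461 to 1804 CPM with DOX, 1926 to 2006 CPM without DOX and 1873 to 2098 CPM in 2iL. None of the 13 tested fatty acid genes was called without DOX against 2iL by edgeR, where 20.4% of all genes tested were called. Of the 13, 1 had an unadjusted p below 0.05, and their median log2 fold change was 0.02.

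**Figure D3:**
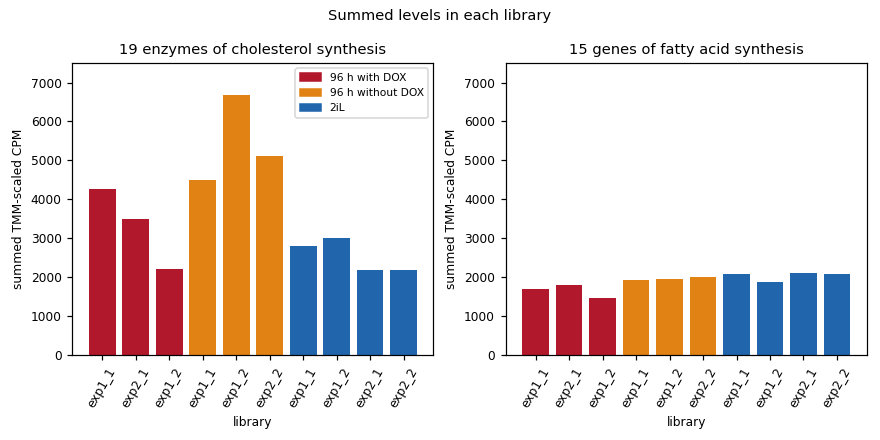
Summed TMM-scaled CPM in each library for the 19 cholesterol synthesis enzymes and for the 15 fatty acid genes; bars start at 0 and are grouped as 96 h with DOX, 96 h without DOX and 2iL. The enzyme sums without DOX (4493 to 6671 CPM) exceed those of every other library, and the fatty acid sums stay between 1461 and 2098 CPM in all 10.

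Of the 5 genes of the SREBP switch, only Insig1 was called, without DOX against 2iL. That is 20% of the 5, where 20.4% of all genes tested were called. Srebf2, which encodes the SREBP that mainly drives cholesterol genes, averaged 206 ± 60.5 CPM with DOX, 249 ± 40.6 CPM without DOX (SD, n = 3 each) and 222 ± 22.1 CPM in 2iL (SD, n = 4). Its log2 fold change without DOX against 2iL was 0.16, with a 95% interval of -0.31 to 0.63. Srebf1 averaged 16.2 ± 10.7 CPM with DOX, 17.8 ± 6.29 CPM without DOX (SD, n = 3 each) and 24.3 ± 7.29 CPM in 2iL (SD, n = 4), and did not pass either. Ranges overlapped between all 3 groups for both SREBP genes. The 3′ end of Srebf1 overlaps Rai1 on the opposite strand by 109 bases, and Rai1 rose by 1.73 without DOX against 2iL (adjusted p = 0.00949). Scap, the SREBP escort, read 27.0, 26.9 and 13.9 CPM with DOX, 41.8, 34.8 and 41.5 CPM without DOX, and 28.5, 18.6, 27.8 and 20.2 CPM in 2iL. Its no-DOX libraries were above all others, but the difference from 2iL did not pass (0.72 ± 0.30, SE; adjusted p = 0.0946).

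Insig1, itself a target of SREBP and a brake on its activation, moved opposite to the early enzymes. It read 61.5, 55.4 and 38.9 CPM with DOX, 47.4, 45.3 and 17.3 CPM without DOX, and 53.1, 64.7, 65.2 and 90.2 CPM in 2iL. Its no-DOX libraries lay below the 2iL libraries, and exp2_2 was far the lowest of them. Insig1 fell by 0.89 ± 0.31 on the log2 scale without DOX against 2iL (SE; adjusted p = 0.0475), with -0.35 in experiment 1 and -2.17 in experiment 2. The adjusted p was up to 0.224 without the no-DOX library exp2_2, 2iL exp1_2, exp2_1 or exp2_2, or DOX exp1_1. The difference of its change between experiments had an unadjusted p of 0.00411 and an adjusted p of 0.496. Insig2, the second anchor, averaged 13.8, 11.1 and 8.67 CPM with DOX, without DOX and in 2iL, and did not pass.

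Sterol storage and transport changed in both directions. Soat1, the enzyme of the endoplasmic reticulum that esterifies cholesterol for storage in droplets (ENSMUSG00000026600, chr1:156424525-156474331, minus strand), had the lowest adjusted p of all members without DOX against 2iL. It read 28.6, 29.4 and 38.9 CPM with DOX, 44.5, 44.5 and 57.6 CPM without DOX, and 7.30, 7.57, 12.2 and 12.9 CPM in 2iL. The 3 groups did not overlap, with the no-DOX libraries on top. Soat1 rose by 1.68 ± 0.31 with DOX against 2iL (SE; adjusted p = 0.000634) and by 2.29 ± 0.30 without DOX against 2iL (SE; adjusted p = 1.18e-05). It was called in both comparisons without each library in turn and within experiment 1, and without DOX the change was 2.57 in experiment 1 and 2.20 in experiment 2. Stard4, a cytosolic carrier that moves sterol between membranes, read 76.9, 76.5 and 66.0 CPM with DOX, 79.0, 96.6 and 96.0 CPM without DOX, and 57.4, 57.4, 42.8 and 61.5 CPM in 2iL. The groups were again apart in the same order, and its rise of 0.73 ± 0.22 without DOX against 2iL (SE; adjusted p = 0.0214) was lost without no-DOX exp1_2 or exp2_2 or 2iL exp2_1, with an adjusted p of up to 0.0839.

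The Niemann-Pick proteins NPC1 and NPC2 act together to export cholesterol from lysosomes, but their genes differed here. Npc2, the soluble lysosomal carrier (ENSMUSG00000021242, chr12:84754562-84773152, minus strand), read 253, 215 and 295 CPM with DOX, 278, 415 and 262 CPM without DOX, and 690.2, 819.7, 843 and 973 CPM in 2iL. All 96 h libraries were below all 2iL libraries. Npc2 fell by 1.71 ± 0.24 on the log2 scale with DOX against 2iL (SE; adjusted p = 4.63e-05) and by 1.39 ± 0.24 without DOX against 2iL (SE; adjusted p = 0.000218), and the change without DOX was -1.12 in experiment 1 and -1.80 in experiment 2. Npc1, the membrane partner that receives the sterol, read 23.9, 33.4 and 32.3 CPM with DOX, 10.2, 15.2 and 15.5 CPM without DOX, and 12.6, 9.61, 12.8 and 10.7 CPM in 2iL. Every DOX library exceeded every other library. Npc1 rose by 1.38 ± 0.33 with DOX against 2iL (SE; adjusted p = 0.00561) and had a log2 fold change of 1.12 ± 0.35 against cells without DOX (SE; adjusted p = 0.0970). Its 3′ end overlaps Rmc1 on the opposite strand, which averaged 2.36, 1.98 and 4.58 CPM with DOX, without DOX and in 2iL.

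Abca1 and Mylip were nearly absent from cells without DOX and averaged only 3.35 and 3.32 CPM in 2iL. Abca1, the pump that loads cholesterol onto lipid-poor apolipoprotein, read 1.66, 0 and 3.67 CPM with DOX, 0.585, 0 and 0 CPM without DOX, and 4.98, 3.79, 2.45 and 2.21 CPM in 2iL. That is 12 reads with DOX, 2 without DOX and 42 in 2iL. The ratio of reads per library size without DOX against 2iL was 0.0534, with an exact 95% interval of 0.00626 to 0.205 that covers counting error only. Mylip read 1.89, 0.612 and 8.07 CPM with DOX, 0.585, 0.215 and 0 CPM without DOX, and 0.663, 4.08, 3.36 and 5.15 CPM in 2iL. It held 21 reads with DOX, 3 without DOX and 41 in 2iL, and its ratio without DOX against 2iL was 0.0820 (0.0162 to 0.257). The lowest 2iL library was close to the highest library without DOX. Both fell without DOX against 2iL at an adjusted p of 0.0327 for Abca1 and 0.0420 for Mylip. Abca1 was filtered out, and so not tested, without 2iL exp1_1 and without 2iL exp1_2. Its call was lost without no-DOX exp1_2 or exp2_2 or DOX exp1_1 (adjusted p up to 0.145). The Mylip call was lost without any 1 of the 3 no-DOX libraries, of 2iL exp1_2, exp2_1 and exp2_2, or DOX exp1_1 (up to 0.142). Abcg1, the other efflux pump, did not go the same way. It averaged 8.09, 9.56 and 7.19 CPM with DOX, without DOX and in 2iL, and did not pass. Its log2 fold change without DOX against 2iL was 0.41 (adjusted p = 0.629 in edgeR's test). The forest plot sets the 31 fold changes of the 3 comparisons side by side.

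**Figure D4:**
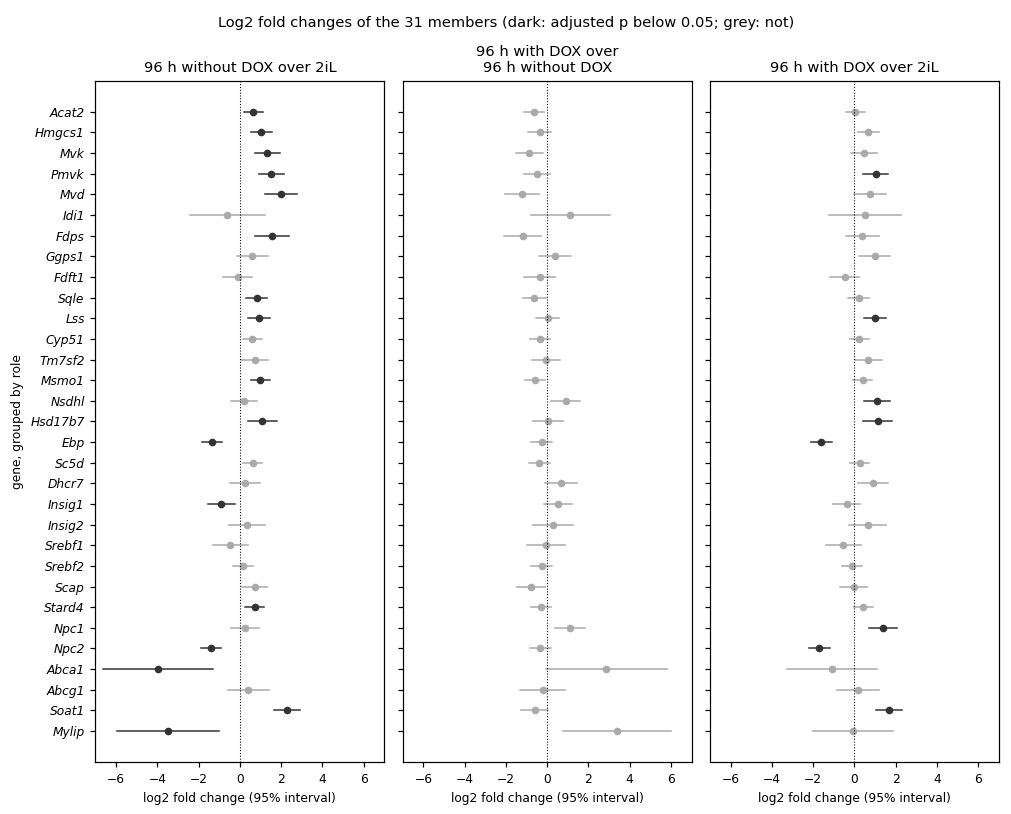
Log2 fold changes of the 31 genes (points) with 95% intervals (lines) from left to right for 96 h without DOX against 2iL, 96 h with DOX against without DOX and 96 h with DOX against 2iL. Dark points were called and grey points were not. Dark points number 17 for no DOX against 2iL, 0 for DOX against no DOX and 8 for DOX against 2iL.

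DOX against no DOX at 96 h asked what differs when cells that carry the construct are given DOX during differentiation. No member passed in edgeR's quasi-likelihood test, where 3.1% of all genes tested were called (2.16% higher, 0.945% lower); 10 had an unadjusted p below 0.05. DESeq2 called 1, Npc1, and 5.03% of all genes it tested, and limma-voom called 0 members. The share of all genes called by limma-voom is not given. Without a filter on low counts edgeR called 3, Mvd, Mvk and Fdps, all lower with DOX, where 3.08% of all genes were called. Without the DOX library exp1_1 it called 1, Mvd (adjusted p = 0.0137; 3.05% of all genes called), and without the DOX library exp1_2 it called 0 (2.23% of all genes called). The median log2 fold change was -0.26 over the 31, or -0.12 without the DOX library exp1_2, against -0.02 over all genes tested. Ranges did not overlap for 8 genes that were lower with DOX (Acat2, Mvk, Sqle, Msmo1, Sc5d, Scap, Stard4 and Soat1) and 3 that were higher (Nsdhl, Npc1 and Mylip), where 8.74% of all genes tested were lower and 9.98% higher without overlap.

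Mvd, Fdps and Mvk had the lowest log2 fold changes of all members in this contrast. The other enzymes up to isopentenyl diphosphate ranged from -0.61 for Acat2 to 1.13 for Idi1. Mvd averaged 350.0 ± 224 CPM with DOX and 817 ± 453 CPM without DOX (SD, n = 3 each), a log2 fold change of -1.22 ± 0.40 (SE; adjusted p = 0.124), which was -0.88 without the DOX library exp1_2, -1.19 in experiment 1 and -1.29 in experiment 2. Fdps averaged 634 ± 378 CPM with DOX and 1451 ± 764 CPM without DOX (SD, n = 3 each), at -1.19 ± 0.43 (SE; adjusted p = 0.162), which was -0.79 without the DOX library exp1_2, -1.47 in experiment 1 and -0.58 in experiment 2. Mvk stood at -0.87 with that library and -0.63 without it. Npc1 stood at 1.12 with it and 1.06 without it, and Nsdhl at 0.89 with it and 0.92 without it. The few reads of Mylip gave a ratio of 9.61 with DOX against no DOX (2.87 to 50.3, counting error only), with 11 of its 21 DOX reads in the library exp1_2, and of 5.37 (1.38 to 30.4) without that library. Those of Abca1 gave a ratio of 8.23 (1.83 to 75.8), with 5 of its 12 DOX reads in that library, and of 5.64 (1.07 to 55.7) without it. Summed levels of 10 primitive and extraembryonic endoderm markers moved with DOX: 340 to 634 CPM with DOX (10 of 10 detected, and 340 to 374 CPM with 10 of 10 without the library exp1_2), 23.8 to 34.8 CPM without DOX and 18.5 to 29.4 CPM in 2iL (9 of 10 each, Sox7 at 0). Visceral endoderm and liver markers summed to 23.6 to 34.3 CPM with DOX (5 of 7 detected, Afp and Rbp4 at 0), 5.94 to 12.9 CPM without DOX and 0.361 to 3.33 CPM in 2iL. In the DOX libraries other than exp1_2, 2 of the 7 were detected, Ttr, Apob and Alb also being at 0, and Trf, the transferrin gene, made up 23.6 to 28.4 CPM of sums of 23.6 to 28.6 CPM. Their part in the values of Npc1, Nsdhl and the other members was not tested.

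DOX at 96 h against 2iL showed how far these cells stood from the naive culture. Of the 31 genes, 6 rose (Pmvk, Lss, Nsdhl, Hsd17b7, Npc1 and Soat1) and 2 fell (Ebp and Npc2), where 16.7% of all genes tested were called, 9.84% higher and 6.83% lower. Pmvk, whose ranges overlapped, rose by 1.03 ± 0.29 (SE; adjusted p = 0.0173), and the call was lost without DOX exp1_1 or 2iL exp2_1 or exp2_2 (adjusted p up to 0.111). Without the DOX library exp1_2, 8 rose and 2 fell (13.5% of all genes tested were called), the added genes being Hmgcs1 (0.89, adjusted p = 0.00413) and Mvd (1.09, adjusted p = 0.0263). The fold changes of the other 8 were then 1.25 for Pmvk, 1.09 for Lss, 1.11 for Nsdhl, 1.15 for Hsd17b7, 1.32 for Npc1, 1.54 for Soat1, -1.50 for Ebp and -1.83 for Npc2, all still called. The count of 8 was 5 without the 2iL library exp2_2 and 5 without the DOX library exp2_1, and the share of all genes called is not given for these fits. Soat1, Npc1, Ebp and Npc2 kept their call without each library in turn, and experiment 1 alone gave 3 calls (7.93% of all genes tested): Soat1 rose, and Ebp and Npc2 fell. Ranges were apart for 9 genes that were higher and 2 that were lower, where 14.3% of all genes tested were higher and 13.3% lower without overlap. This comparison shares its 2iL libraries with that of no DOX against 2iL and its DOX libraries with that of DOX against no DOX.

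The experiments were compared within 2iL, where each gave 2 libraries. No member was called in experiment 2 against experiment 1 by edgeR, DESeq2 or limma-voom, where edgeR called 0.0357% of all genes tested; 3 members, Mvk, Pmvk and Sqle, had an unadjusted p below 0.05 and were lower in experiment 2. No member's change without DOX against 2iL, or with DOX against no DOX, was called as different between the experiments by any of these tools (0.00892% and 0% of all genes tested by edgeR). Insig1 was the member with an unadjusted p below 0.05 in each. Shares of all genes called by DESeq2 and limma-voom are not given for these comparisons of experiments.

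Genes of the pathway's branches and partners outside the 31 were read from 4 lists with 61 genes in all. Among 12 genes of the isoprenoid branches, which use farnesyl and geranylgeranyl diphosphate, none rose without DOX against 2iL and 1 fell: Fntb, the beta subunit of protein farnesyltransferase, by 0.98 on the log2 scale (adjusted p = 0.0032). That is 8.33% of the 12 lower, where 8.9% of all genes tested were lower and 11.5% higher. With DOX against 2iL, Fntb fell by 1.43 (adjusted p = 0.000176) and its partner Fnta by 0.98 (adjusted p = 0.0341). Without the DOX library exp1_2 the adjusted p was 0.000402 for Fntb and 0.102 for Fnta, whose call was lost. Among genes of sterol sensing and SREBP processing, Mbtps1, the site-1 protease that cuts SREBP, fell by 0.65 with DOX against 2iL (adjusted p = 0.0421), a call lost without the DOX library exp1_2 (adjusted p = 0.0745). None of the fatty acid, isoprenoid or sterol sensing genes was called with DOX against no DOX, where 3.1% of all genes tested were called. Of the fatty acid genes, 2 had an unadjusted p below 0.05. With DOX against 2iL, where 16.7% of all genes tested were called, 1 fatty acid gene was called. This was Me1, malic enzyme, which fell by 0.84 (adjusted p = 0.0483), a call lost without the DOX library exp1_2 (adjusted p = 0.141). No other fatty acid gene was called there without that library.

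Among 17 tested genes of sterol transport outside the members, 2 rose and 2 fell without DOX against 2iL. That is 11.8% each, where 11.5% of all genes tested were higher and 8.9% lower. The log2 fold changes were 1.86 for Lrp8, a lipoprotein receptor, and 1.47 for Stard5, a sterol carrier. They were -1.17 for Osbpl9, an oxysterol-binding protein relative, and -1.92 for Lrpap1. Lrpap1, a chaperone of lipoprotein receptors, was the 1 gene of these lists called with DOX against no DOX, where 3.1% of all genes tested were called. It read 98.9, 96.1 and 67.5 CPM with DOX, 31.6, 29.9 and 16.7 CPM without DOX, and 84.9, 82.4, 123 and 106 CPM in 2iL. Libraries without DOX lay far below both other groups, which overlapped. Lrpap1 rose by 1.75 ± 0.29 with DOX against no DOX (SE; adjusted p = 0.00099; 1.90 without the DOX library exp1_2, adjusted p = 0.000235) and fell by 1.92 ± 0.27 without DOX against 2iL (SE; adjusted p = 2.7e-05). With DOX against 2iL, Lrp8 rose by 1.38, Stard5 by 1.91 and Lipa, the lysosomal acid lipase that frees cholesterol from esters, by 2.47 (adjusted p = 0.0306). Without the DOX library exp1_2 the changes were 1.20 for Lrp8 (adjusted p = 0.0363), 2.02 for Stard5 (adjusted p = 0.0113) and 1.43 for Lipa, whose call was lost (adjusted p = 0.322). Lipa read 1.89, 7.35 and 20.5 CPM with DOX, with its highest value in the library exp1_2, 3.80, 2.15 and 6.14 CPM without DOX, and 0.995, 2.62, 1.53 and 1.47 CPM in 2iL.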

How the data were processed

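The authors deposited counts of reads per gene in 1 file per library, made by 3′ digital gene expression from polyA RNA. Per the submitters' processing notes, bcl2fastq, STAR 2.6.0a and HTSeq were used with the mm10 build; the sources used here give neither the annotation release nor whether strand was used. HTSeq's 5 summary lines, 62.7 to 68.4% of reads, stayed out of library sizes; 56.4 to 62.4% of reads were not uniquely placed. A deposited CPM table was not used. Ensembl IDs were matched to symbols, and overlaps and near copies read, in GENCODE vM21 (GRCm38).

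Genes were filtered with filterByExpr (minimum count 10), which all 31 members passed, Abca1 with 56, Mylip with 65 and Idi1 with 117 reads in all. edgeR 4.0.16 in R 4.3.3 fitted all 10 libraries with TMM factors of 0.913 to 1.09 and a robust quasi-likelihood model. SE is the fold change over the root of F. DESeq2 1.42.0, voom of limma 3.58.1, other filters, scalings and sample sets were alternatives. Near copies were 3′ ends of 300 bases matched at 95% identity or more. Counting intervals are exact conditional binomial, at 95%.

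Members, lists and tests were chosen with earlier results of these data known. All members were accounted for, and up to 2 called genes per direction were named from each related list and comparison. Among the related genes, 1 result is not reported here.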

Additional observations from a re-analysis of the deposited data

Results flagged for a closer look

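In the 2iL group, the only group of 4 libraries, each of the 31 genes was checked for a library far from the others, and 1 was found. Ebp read 153.8 CPM in the 2iL library exp1_2, against 223.9, 214.3 and 216.6 CPM in the other 3 (Dixon ratio 0.863). Such a gap is met by chance in about 1 of 20 groups, so 1 among 31 is not more than chance gives. The library was still above all 6 libraries collected at 96 h, the highest of which read 104 CPM.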

How the results depend on the processing

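No direction of a called gene was reversed under any alternative. All alternatives refitted the same libraries or part of them, so this is not an independent check. The 17 calls without DOX against 2iL ranged from 10 (without no-DOX exp2_2) to 19 (without DOX exp1_2) when each library was left out in turn, and fell to 3 within experiment 1. With DOX against no DOX, 0 calls became 3 without a filter on low counts and 1 with DESeq2, and were 0 to 1 when each library was left out. With DOX against 2iL, 8 calls became 3 within experiment 1 and 5 to 10 when each library was left out. Fits within experiment 1 or without a library hold fewer libraries, and the cause of the other changes was not tested. With the experiment as a replicate block the counts were 16, 0 and 8, and with experiment and library number together as a replicate block 12, 0 and 8. Insig1 was the call lost under the first (adjusted p = 0.0540), and Insig1 (0.0818), Acat2, Hsd17b7, Stard4 and Mylip those lost under the second. Deviations from the group mean correlated at -0.0953 to 0.205 between same-numbered libraries of 1 experiment. Other pairs of libraries from different groups gave -0.179 to 0.136. With 3 or 4 libraries in a group, these values cannot decide whether the numbers pair the libraries. RLE scaling gave 17, 0 and 8. Shares of all genes called are not given for the block and RLE fits. Depth limits Abca1, Mylip and Idi1 most.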
